A study of Mus musculus with 27 samples.

Results

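The comparison described here is a difference between 2 treatment effects in the hearts of 14-day-old CD-1 mice, CD-1 being an outbred stock. The first effect is that of blocking thyroid hormone, alpha-adrenergic and beta-adrenergic signalling together, measured in sequencing set A as PTU+PHE+PRO hearts minus saline hearts. The second is that of blocking thyroid hormone and beta-adrenergic signalling, measured in sequencing set B as PTU+PRO hearts minus saline hearts. Subtracting the second from the first asks what alpha block adds to PTU and propranolol. The design fixed which libraries enter: 12 of the 27 in the series, from 4 of its 9 groups, with 3 whole hearts in each.

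PTU (propylthiouracil) was given to pregnant females as 0.15% of an iodine-deficient chow from E13.5 (embryonic day) and was kept up afterwards, so the pups met it before and after birth. PHE (phenoxybenzamine, an alpha blocker) at 10 ug/g/day and PRO (propranolol, a beta blocker) at 20 ug/g/day were injected under the skin of the pups each day from postnatal day 1 to 14. The PTU+PHE+PRO hearts received all 3, the PTU+PRO hearts received both named agents, and each set has saline hearts of its own. No gene was altered in any group. The litter of each pup is not given, so hearts of a group may share a mother. All groups with PHE are in set A, so set and alpha block cannot be told apart in this difference.

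Thyroid hormone acts through nuclear receptors that switch the newborn heart from fetal to adult contractile, calcium and ion channel genes, and its level rises after birth, when heart muscle cells leave the cell cycle. Norepinephrine from sympathetic nerves acts on beta receptors, which raise cyclic AMP through Gs and adenylyl cyclase, and on alpha-1 receptors, which act through Gq, phospholipase C and calcium and are known to drive hypertrophic growth in cultured heart muscle cells. Alpha-2 receptors act through Gi. Phenoxybenzamine binds alpha receptors irreversibly, and propranolol blocks beta receptors.

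Levels below are CPM, reads per 1000000 of the library total after TMM scaling, and the hearts of a group are always listed in the order 1, 2, 3. The log2 difference is the triple effect minus the PTU+PRO effect, and it is given ± its standard error with 3 hearts per group. A gene is called higher or lower in the triple effect when its adjusted p in edgeR's quasi-likelihood test, with Benjamini-Hochberg adjustment over 19119 genes, is under 0.05. Nothing in the labels says that hearts came from separate litters, so these p-values measure a spread between hearts. That spread is estimated for each gene over the 27 libraries of all 9 groups together, not from the 12 hearts compared alone.

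The 12 libraries held 30791885 to 68609024 assigned reads. The cardiomyocyte markers were abundant throughout, with summed levels of 32030 to 90590 CPM. The PTU+PHE+PRO libraries stood apart from one another in the balance of long and short transcripts. The median log2 level of transcripts over 8000 bases minus that of transcripts under 1000 bases, relative to all libraries, was -0.41, -1.23 and -0.13 in them, 0.60, 0.59 and 0.54 in PTU+PRO, 0.01, 0.21 and 0.42 in saline of set A and 0.18, 0.40 and 0.52 in saline of set B. Reads on genes of ribosomal RNA were 0.169%, 0.168% and 1.23% of the library in PTU+PHE+PRO and 0.0433% to 0.0483% in PTU+PRO. Saline hearts of equal number in the 2 sets deviated together from their group means (Pearson's r 0.89, 0.89 and 0.93 across genes, which are not independent replicates), while other numbers gave r between -0.67 and -0.02. Read counts of saline hearts differed by a chi-square of 32.1 to 44.5 per gene for equal numbers and of 64.8 to 82.6 for other numbers, all beyond counting noise, which does not tell separate hearts from the same RNA sequenced in both sets. Whether they come from the same animals is not stated in the labels, so the 6 saline libraries may not be independent. With the saline hearts of equal number tied by a block, 3461 genes were called in the difference, against 3418 without it. By the same chi-square, hearts within PTU+PHE+PRO differed by 106.2 to 156.2 per gene and hearts within PTU+PRO by 17.0 to 22.8. The shared estimate of spread does not keep these groups apart.

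**Figure D1:**
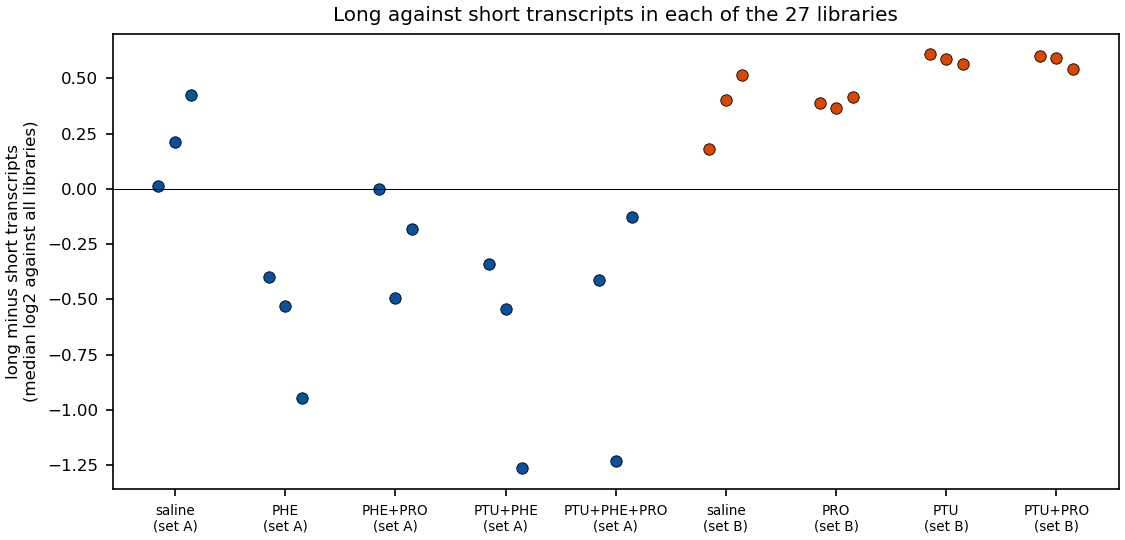
Median log2 level of transcripts over 8000 bases minus that of transcripts under 1000 bases, relative to all libraries (vertical axis), for each of the 27 libraries (1 point per heart) by group (horizontal axis, set A in blue, set B in orange). The PTU+PHE+PRO hearts lie at -0.41, -1.23 and -0.13 and the PTU+PRO hearts between 0.54 and 0.60.

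The triple effect and the PTU+PRO effect differed for 3418 of 19119 genes (17.9%), of which 1712 lay higher in the triple effect (8.95%) and 1706 lower (8.92%). The shares of 8.95% and 8.92% are the background for every list count of this difference below. The median log2 difference over all genes was 0.02, and 923 called genes differed at least 2-fold. The triple effect itself held 10458 calls (54.7%), the PTU+PRO effect 6857 (35.9%), and the PTU+PHE+PRO hearts against the PTU+PRO hearts without regard to saline 8582 (44.9%). After subtraction of the saline mean, the values of the treated groups did not overlap for 9104 genes (47.6%). Of the genes called higher, 1068 were called against saline only in the triple effect, 234 were called in both and moved further in the triple effect, 272 only in the PTU+PRO effect and 58 in opposite directions. Of the genes called lower, 910 were called only in the triple effect, 319 in both and further in the triple effect, 279 only in the PTU+PRO effect and 104 in opposite directions. For 38 higher and 63 lower genes both effects had the same direction and the triple effect was the smaller. The remaining 42 and 31 were called in neither effect.

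The count leaned on single hearts. It was 1917 without PTU+PHE+PRO heart 2, the library with the steepest length dependence, with 668 higher (3.49%) and 1249 lower (6.53%). It was 2142 without PTU+PRO heart 1, 2088 without PTU+PRO heart 3, 1778 without saline heart 1 of set B and 2026 without saline heart 3 of set A. With a length-dependent offset for each library it was 2553, with 1401 higher (7.33%) and 1152 lower (6.03%). A fit of the 4 groups alone called 1988.

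**Figure D2:**
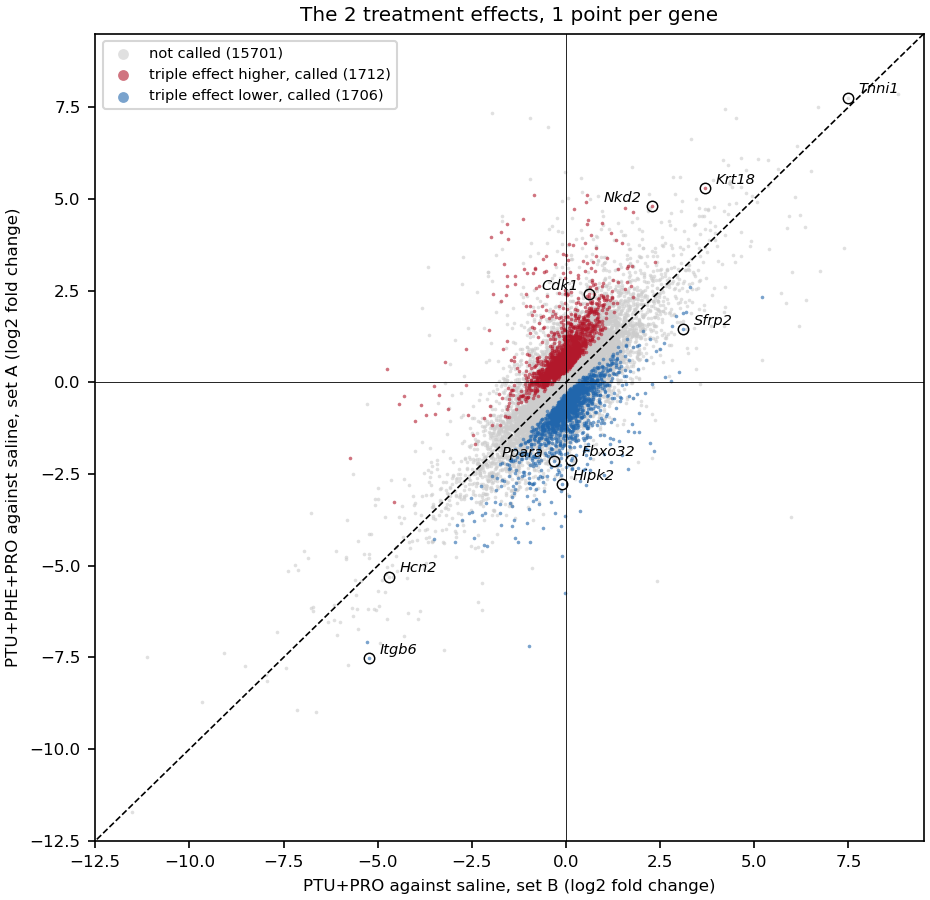
Log2 fold change of PTU+PRO against saline in set B (horizontal axis) and of PTU+PHE+PRO against saline in set A (vertical axis), 1 point per gene tested, with the dashed line where both effects are equal. Red points are the 1712 genes called higher in the triple effect and blue points the 1706 called lower; Tnni1, on the dashed line, rose by 7.76 and 7.49.

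Among the genes with the largest called differences was Nkd2, an inhibitor of Wnt signalling that binds Dishevelled (chromosome 13, 73818534 to 73847631, minus strand, GRCm38). Its level was 3.76, 5.23 and 5.18 CPM in saline of set A, 119.9, 164.0 and 113.4 in PTU+PHE+PRO, 3.32, 4.21 and 3.77 in saline of set B, and 17.8, 26.3 and 11.3 in PTU+PRO. Every treated heart was above every saline heart, and the PTU+PHE+PRO hearts did not overlap the PTU+PRO hearts. The rule that named the largest differences required such a separation, after subtraction of the saline mean. The log2 difference was 2.51 ± 0.33 (adjusted p = 0.000163), from a rise of 4.81 in the triple effect and of 2.29 in the PTU+PRO effect.

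Hipk2, a nuclear kinase that acts on p53 and on transcriptional co-repressors (chromosome 6, 38694390 to 38876165, minus strand), went the other way. It stood at 66.8, 93.1 and 98.2 CPM in saline of set A and fell to 10.7, 6.03 and 21.4 in PTU+PHE+PRO. In set B it was 78.0, 106.5 and 112.9 in saline and 95.5, 89.9 and 92.0 in PTU+PRO, which lay within the saline range. The log2 difference was -2.67 ± 0.50 (adjusted p = 0.0021).

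Fbxo32, the muscle ubiquitin ligase atrogin-1, was 97.4, 120.9 and 174.7 CPM in saline of set A and 43.2, 22.3 and 24.6 in PTU+PHE+PRO, against 91.2, 117.2 and 169.1 in saline of set B and 145.4, 112.8 and 156.8 in PTU+PRO. All PTU+PHE+PRO hearts were below every other heart, and the log2 difference was -2.26 ± 0.34 (adjusted p = 0.000385). Klhl38, a kelch protein of striated muscle, differed by -2.71 ± 0.63, and Asb15, a muscle adaptor of ubiquitin ligases, by -2.38 ± 0.42. Nt5c1a, which makes adenosine from AMP in heart and muscle, differed by -2.48 ± 0.45, with a fall of 3.47 in the triple effect and a fall of 0.98 in the PTU+PRO effect. Itgb6, the beta-6 integrin subunit, fell from 24.2 to 27.7 CPM in saline of set A to between 0.0586 and 0.226 in PTU+PHE+PRO, and from 23.5 to 26.8 in saline of set B to between 0.543 and 0.808 in PTU+PRO. It was nearly lost in both treated groups, and the log2 difference was -2.28 ± 0.41.

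Tnfrsf12a, the receptor for the cytokine TWEAK, was 134.5, 222.9 and 167.0 CPM in PTU+PHE+PRO against 32.2 to 55.1 in saline of set A. In PTU+PRO it was 47.5, 61.7 and 39.9, within 36.8 to 60.5 in saline of set B apart from heart 2. The log2 difference was 1.96 ± 0.45 (adjusted p = 0.00764). Habp2, a secreted serine protease, differed by 1.96 ± 0.35.

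Lars2 and Mir6236 had the largest positive differences of the genes named by rule. Lars2, a mitochondrial leucyl-tRNA synthetase, was 603.2, 730.7 and 5682 CPM in PTU+PHE+PRO and 141.2 to 149.9 in PTU+PRO. Mir6236, annotated as a microRNA, was 58.7, 64.6 and 384.9 CPM in PTU+PHE+PRO and 4.01 to 4.30 in PTU+PRO. In both genes heart 3, with 1.23% of reads on ribosomal RNA genes, was the highest, and the part of such reads in these values was not tested. Their adjusted p of 0.0231 and 0.00981 passed the threshold, and both calls were lost in the fit of the 4 groups. Lars2 also lost its call without PTU+PHE+PRO heart 3. The same held without PTU+PRO heart 3, saline heart 2 of set B or saline heart 1 or 3 of set A. Mir6236 kept its call when any single heart was left out.

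**Figure D3:**
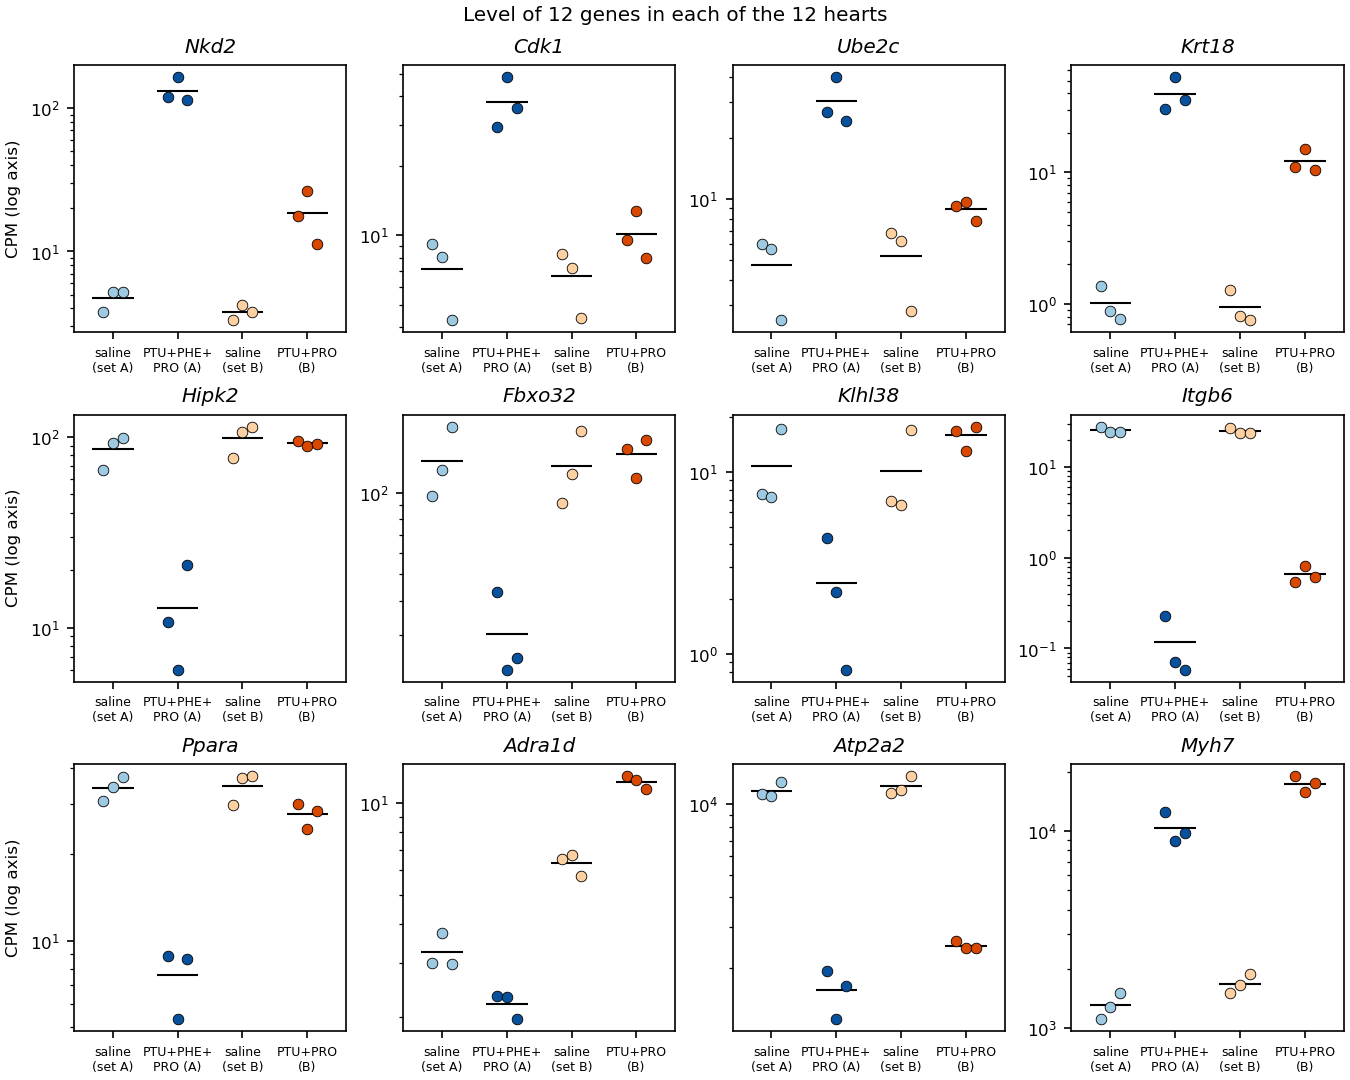
Level in CPM (vertical log axes) of 12 genes in each of the 12 hearts (points), with the group mean as a bar, for saline and PTU+PHE+PRO of set A and saline and PTU+PRO of set B. In Nkd2 the PTU+PHE+PRO hearts sit between 113.4 and 164.0 and the PTU+PRO hearts between 11.3 and 26.3; in Ppara they sit between 5.34 and 8.86 and between 24.5 and 29.98.

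Among genes of the receptors that the drugs bind, 1 was called, and it moved in opposite directions in the 2 effects. Of 5 alpha-adrenergic receptor genes tested, 1 was called lower and none higher (8.92% and 8.95% of all genes were), with a median log2 difference of -0.33 against 0.02 over all genes. The called gene was Adra1d, the alpha-1D receptor (chromosome 2, 131545850 to 131562283, minus strand), at 3.00, 3.76 and 2.96 CPM in saline of set A, 2.33, 2.32 and 1.96 in PTU+PHE+PRO, 6.53, 6.73 and 5.76 in saline of set B and 12.2, 11.8 and 11.03 in PTU+PRO. It fell by 0.55 in the triple effect and rose by 0.88 in the PTU+PRO effect, a log2 difference of -1.43 ± 0.20 (adjusted p = 0.000268). The saline hearts of the 2 sets also differed in it, by -0.97 (adjusted p = 9.46e-05), with no overlap.

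Adra1b, the alpha-1B receptor, was 56.5 to 63.1 CPM in saline of set A and 26.4 to 42.2 in PTU+PHE+PRO, against 75.1 to 83.6 in saline of set B and 31.6 to 40.2 in PTU+PRO. It fell in both effects, by 0.84 and by 1.10, and the log2 difference of 0.26 ± 0.23 missed the threshold. Adra1a, the alpha-1A receptor, gave -0.33 ± 0.45, Adra2b gave -0.46 ± 0.41 and Adra2c gave 0.72 ± 0.59, none called.

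Of 10 genes of beta receptors and their desensitisation, 1 was called lower. It was Arrb1, beta-arrestin 1, which uncouples receptors from G proteins: it was 56.9, 58.5 and 56.9 CPM in PTU+PRO and 35.5 to 37.6 in its saline hearts, and 38.4, 30.8 and 41.2 in PTU+PHE+PRO against 36.5 to 38.4 in saline of set A. The rise of 0.66 in the PTU+PRO effect was thus not matched in the triple effect (-0.03), and the log2 difference was -0.69 ± 0.13 (adjusted p = 0.00177). Adrb1, the main beta receptor of heart muscle, differed by -0.23 ± 0.30, not called. Adrb1 was 25.8 to 27.9 CPM in saline of set A and 47.9 to 53.6 in saline of set B, so its level shifted between sets without treatment. Gnas, which encodes the Gs alpha subunit, shifted far more, from 257.3 to 281.1 CPM in saline of set B to 11.1 to 15.4 in saline of set A, and its log2 difference of 0.43 ± 0.30 was not called.

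Downstream of the receptors, the enzymes that make and break cyclic AMP, listed with a subunit of its kinase, leaned lower in the triple effect in the main fit. Of 21 tested, 6 were called lower and 1 higher (8.92% and 8.95% of all genes were), and over the alternative settings the number lower ran from 4 to 7. With the length offset 4 were called lower and 2 higher, with a median of -0.05. The 6 were the adenylyl cyclases Adcy3, Adcy5, Adcy6 and Adcy9, the phosphodiesterase Pde4a and the kinase subunit Prkar2a, and the 1 higher was the phosphodiesterase Pde8a. Adcy6, a main cyclase of heart muscle, was 347.1, 373.7 and 408.9 CPM in saline of set A and 383.3, 318.3 and 319.6 in PTU+PHE+PRO, but 346.0, 368.7 and 407.6 in saline of set B and 619.1, 555.5 and 631.5 in PTU+PRO. Only the PTU+PRO hearts left the saline range upwards, and the log2 difference was -0.83 ± 0.16 (adjusted p = 0.00199). Adcy9 instead fell in the triple effect, to 8.79, 3.69 and 9.35 CPM from 24.8 to 30.8, with 22.8 to 26.1 in PTU+PRO, and differed by -1.61 ± 0.31. Pde4a differed by -1.13 ± 0.26.

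Among the read-outs of cyclic AMP, 1 of 15 response genes was called, Ppargc1a (17.9% of all genes were called). The median log2 difference was 0.14, and 0.27 without PTU+PHE+PRO heart 2. Few calls do not show that these genes were unshifted, since a standard error can be wide, as in Nr4a1. Nr4a1, an immediate response gene, was 27.5 to 68.4 CPM in PTU+PHE+PRO and 43.1 to 55.7 in PTU+PRO, and differed by -0.18 ± 0.81. Of 25 genes of Gq, Gi and phospholipase C signalling, the route of alpha receptors, 2 were called lower, Plcb3 and Itpr1. That share is under the 8.92% of all genes called lower. The number was 1 in the fit of the 4 groups, 1 without PTU+PHE+PRO heart 2 and 0 with the length offset. Of 13 RGS proteins, which switch G proteins off, none was called. Of 18 genes of the calcineurin, NFAT and MEF2 route to hypertrophy, 4 were called lower and 1 higher (8.92% and 8.95% of all genes were). Nfatc2 differed by -0.81 ± 0.19 and Mef2d by -0.63 ± 0.17. The number lower was 2 with the length offset, without the filter on low counts and in the fit of the 4 groups.

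The genes that thyroid hormone switches on had fallen in both effects, 13 of 13 in the triple effect (26% of all genes were called lower there) and 12 of 13 in the PTU+PRO effect (18.1%), and the difference between the effects was called for 4 of them. Kcnd2, Ppargc1a and Atp2a2 lay lower in the triple effect, and Me1, malic enzyme, higher. The number lower was 8 without PTU+PHE+PRO heart 1, 6 by DESeq2 or without the filter on low counts, 5 without saline heart 3 of set B and 1 without PTU+PRO heart 3. Myh6, the adult alpha myosin heavy chain, was 30960 to 38600 CPM in saline of set A, 2392, 1473 and 1703 in PTU+PHE+PRO, 25890 to 33080 in saline of set B and 2512, 2106 and 2314 in PTU+PRO. It had fallen by 4.22 and 3.65, and the log2 difference of -0.57 ± 0.22 missed the threshold (adjusted p = 0.0759). Atp2a2, the calcium pump SERCA2, fell by 2.83 and 2.26, and its log2 difference of -0.57 ± 0.19 lay at the edge of the threshold (adjusted p = 0.0438): it was lost in 11 of 21 alternatives, among them the omission of any 1 PTU+PRO heart, of saline heart 1 or 2 of set B, of saline heart 3 of set A or of PTU+PHE+PRO heart 2. Kcnd2, a potassium channel of the transient outward current, differed by -1.40 ± 0.39, a call lost without PTU+PRO heart 3 or PTU+PHE+PRO heart 2.

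Receptors, transporters and cofactors of thyroid hormone moved one way, with a median log2 difference of -0.38. Of 16, 6 were called lower and none higher (8.92% and 8.95% of all genes were). They were the transporter Slc16a10, the retinoid X receptor Rxra, the co-repressor Ncor1 and the coactivators Ncoa1, Ncoa2 and Ncoa3. Slc16a10 was 26.3 to 28.8 CPM in saline of set A and 12.3, 13.1 and 10.9 in PTU+PHE+PRO, against 33.0 to 35.5 and 24.95, 21.5 and 25.7 in set B. It fell in both effects and further in the triple effect, by -0.68 ± 0.15 (adjusted p = 0.00378). The count was 3 with the length offset and 3 without saline heart 1 of set B.

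Myh7, the fetal beta myosin heavy chain that thyroid hormone represses, rose by 3.00 and 3.38, with a log2 difference of -0.38 ± 0.19 that was not called. Tnni1, the fetal slow troponin I, rose by 7.76 and 7.49, and the difference of 0.27 ± 0.44 was not called either. The fetal sarcomere list as a whole had 5 of 10 members called higher and none lower (8.95% and 8.92% of all genes were). They were Myl4, Acta2, Tnnt1, Tagln and Tpm2. Acta2, Tagln and Tpm2 are also the 3 of 12 vascular smooth muscle markers called higher, with Myocd, a coactivator of smooth and heart muscle genes, called lower and a median log2 difference of -0.10 over the 12. The smooth muscle markers summed to 856.2 to 1157 CPM in PTU+PHE+PRO against 995.0 to 1049 in saline of set A, and to 815.4 to 903.5 in PTU+PRO against 974.6 to 1012 in saline of set B. The part of smooth muscle cells in the fetal sarcomere values was not tested. None of the smooth muscle markers was called higher without PTU+PRO heart 3, saline heart 1 of set B or saline heart 3 of set A. Myl4, a light chain of fetal and atrial muscle, was 4.91, 4.98 and 4.13 CPM in saline of set A, 8.14, 10.3 and 8.53 in PTU+PHE+PRO, 2.94, 4.30 and 4.05 in saline of set B and 3.77, 3.68 and 2.91 in PTU+PRO. Only the PTU+PHE+PRO hearts rose above the saline range, a log2 difference of 1.07 ± 0.24 (adjusted p = 0.00551). The count was 1 without PTU+PRO heart 3 or saline heart 3 of set A, 2 with the length offset or without saline heart 1 of set B, and 3 without saline heart 2 of set B, without PTU+PHE+PRO heart 2 or without the filter on low counts.

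Adult sarcomere genes split, with 5 of 18 called higher and 2 lower (8.95% and 8.92% of all genes were). Tnnc1, the calcium-binding troponin C, was 1118, 985 and 990 CPM in PTU+PRO against 1601 to 1803 in saline, and 2769, 4022 and 2139 in PTU+PHE+PRO against 2145 to 2567, a log2 difference of 1.05 ± 0.22. Myom2, an M-band protein, rose in both effects but less in the triple effect, by 0.36 against 1.17, a log2 difference of -0.81 ± 0.18. Hrc, a calcium-binding protein of the sarcoplasmic reticulum, fell by 2.15 and 1.45. The number of sarcomere genes called higher was 1 without PTU+PHE+PRO heart 2 and 8 without heart 3, and from 2 to 3 without PTU+PRO heart 2 or 3, saline heart 1 or 2 of set B or saline heart 3 of set A. The summed cardiomyocyte markers were 49030 to 66350 CPM in PTU+PHE+PRO against 81370 to 90590 in saline of set A, and 32030 to 35440 in PTU+PRO against 68860 to 78820 in saline of set B. In whole hearts, fewer cells of a type and less RNA per cell cannot be told apart.

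Genes of late cell division lay higher in the triple effect. Of 36 genes of G2 and M phase, 18 were called higher and none lower (8.95% and 8.92% of all genes were). The median log2 difference was 1.09 against 0.02 over all genes. In the triple effect 34 of the 36 were higher than saline and 1 lower (28.7% of all genes were called higher there), and in the PTU+PRO effect 17 were higher and 1 lower (17.7% of all genes). The 18 were the cyclins Ccna2, Ccnb1 and Ccnb2, the kinase Cdk1 and its activating phosphatases Cdc25b and Cdc25c, the spindle checkpoint genes Mad2l1, Ttk and Cdc20, the mitotic kinases Aurka and Nek2, and Birc5, Cenpa, Ect2, Kif4, Nusap1, Racgap1 and Ube2c.

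Cdk1, the kinase that starts mitosis (chromosome 10, 69335146 to 69352938, minus strand), was 9.13, 8.03 and 4.31 CPM in saline of set A, 29.5, 48.2 and 35.6 in PTU+PHE+PRO, 8.32, 7.26 and 4.38 in saline of set B and 9.54, 12.8 and 8.01 in PTU+PRO. The PTU+PHE+PRO hearts were all above the other hearts, and the PTU+PRO hearts overlapped their saline hearts. The log2 difference was 1.79 ± 0.34, or 3.47-fold (adjusted p = 0.00197). Ube2c, which loads ubiquitin for the anaphase-promoting complex, was 26.9, 39.6 and 24.1 CPM in PTU+PHE+PRO and 9.28, 9.66 and 7.84 in PTU+PRO, against 2.54 to 6.80 in the 6 saline hearts, a log2 difference of 1.91 ± 0.40. Mad2l1, a spindle checkpoint protein, was 15.2, 25.4 and 19.7 CPM in PTU+PHE+PRO and 7.51, 8.70 and 6.92 in PTU+PRO, a log2 difference of 1.33 ± 0.28.

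Cenpa, the centromeric histone H3 variant, reached its positive difference from the other side. It was 64.4 to 70.7 CPM in the 6 saline hearts, 30.04, 44.8 and 32.2 in PTU+PHE+PRO and 16.2, 18.95 and 16.7 in PTU+PRO. It fell in both effects, by 0.89 and by 2.01, and the log2 difference was 1.11 ± 0.16 (adjusted p = 0.000268).

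Genes of G1 and S phase had risen in both effects, 28 of 33 in the triple effect (28.7% of all genes) and 25 of 33 in the PTU+PRO effect (17.7%). The difference between the effects was called higher for 5 and lower for 1 (8.95% and 8.92% of all genes). The 5 were Ccne1, Cdk4, Gins1, Rfc4 and Tyms. Their number was 12 without PTU+PRO heart 2 or PTU+PHE+PRO heart 1, 3 without saline heart 2 of set A, and 2 in the fit of the 4 groups or without PTU+PRO heart 1 or 3, saline heart 1 or 2 of set B, PTU+PHE+PRO heart 2 or saline heart 3 of set A. Gins1, part of the replicative helicase, differed by 1.43 ± 0.32 and Rfc4, a clamp loader subunit, by 1.15 ± 0.25. The 1 lower was cyclin D2, Ccnd2, at 179.1, 143.3 and 234.4 CPM in PTU+PHE+PRO against 104.8 to 131.3 in saline of set A, and at 301.1, 321.2 and 299.4 in PTU+PRO against 100.9 to 133.2 in saline of set B. It rose in both, by less in the triple effect, and the call was lost with the length offset and in the fit of the 4 groups. Among inhibitors of the cycle, Cdkn1b, p27, differed by -0.92 ± 0.24 and Cdkn2c, p18, by 0.80 ± 0.15.

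The G2 and M count was 22 with the length offset and 12 without PTU+PHE+PRO heart 2. It was 8 in the fit of the 4 groups and 8 without saline heart 1 of set B, 11 without saline heart 3 of set A, 31 without saline heart 3 of set B and 32 with the saline hearts of equal number tied by a block. Granulocyte markers moved with the cell cycle genes. Their summed level was 29.96 to 96.9 CPM in PTU+PHE+PRO and 6.67 to 12.9 in PTU+PRO. In the saline hearts it was 4.27 to 8.44 in set A and 3.78 to 5.48 in set B, the last with Elane and Ly6g at 0. Of 11 tested, 5 were called higher (8.95% of all genes were). That number was 2 without saline heart 2 of set B, without saline heart 3 of set A or without the filter on low counts, and 3 with the length offset or without PTU+PRO heart 2, PTU+PHE+PRO heart 2 or 3 or saline heart 1 of set A. Camp, a granule peptide, differed by 3.31 ± 0.75. The part of these cells in the cell cycle values was not tested.

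Promoters of mitotic genes are known to carry the cell cycle homology region, bound by the DREAM complex and by B-MYB with FOXM1, and CCAAT boxes, bound by NF-Y. Windows of 300 bases, from 250 before to 50 after the annotated start, were taken from RefSeq on GRCm38.p6 for 30 of the 36 genes. The letters TTTGAA, the core of the homology region, occurred on either strand in 22 of the 30 (73.3%), in 10 of the 16 matched genes that were called higher (62.5%) and in 18.1% of 27025 promoters in all. The letters CCAAT occurred in 24 of the 30 (80.0%), in 13 of the 16 (81.2%) and in 37.9% of all. Both were found in 19 of the 30 (63.3%) and in 7.12% of all. The windows of 3 genes described above are printed 5′ to 3′ on the coding strand, since they show the range from several matches to none, with matches to either motif on either strand in capitals (TTCAAA and ATTGG are the same motifs on the other strand). Those of Cdk1 (chr10:69352863-69353162, minus strand) and Ube2c (chr2:164769679-164769978, plus strand) hold both motifs, and that of Mad2l1 (chr6:66534971-66535270, plus strand) holds neither, although all 3 genes were called higher. A match is a description of letters, and nothing was measured at these windows.
Cdk1: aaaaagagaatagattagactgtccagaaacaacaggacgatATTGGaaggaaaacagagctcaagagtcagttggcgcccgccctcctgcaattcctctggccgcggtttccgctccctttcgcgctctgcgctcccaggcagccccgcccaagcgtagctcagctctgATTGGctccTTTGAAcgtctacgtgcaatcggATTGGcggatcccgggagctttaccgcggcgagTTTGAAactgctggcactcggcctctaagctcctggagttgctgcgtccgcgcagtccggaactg
Ube2c: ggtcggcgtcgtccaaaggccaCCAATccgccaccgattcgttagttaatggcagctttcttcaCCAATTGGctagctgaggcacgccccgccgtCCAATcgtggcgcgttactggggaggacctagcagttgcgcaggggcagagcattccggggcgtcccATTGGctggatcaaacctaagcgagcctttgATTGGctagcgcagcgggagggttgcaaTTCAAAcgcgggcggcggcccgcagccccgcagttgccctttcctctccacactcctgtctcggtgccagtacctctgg
Mad2l1: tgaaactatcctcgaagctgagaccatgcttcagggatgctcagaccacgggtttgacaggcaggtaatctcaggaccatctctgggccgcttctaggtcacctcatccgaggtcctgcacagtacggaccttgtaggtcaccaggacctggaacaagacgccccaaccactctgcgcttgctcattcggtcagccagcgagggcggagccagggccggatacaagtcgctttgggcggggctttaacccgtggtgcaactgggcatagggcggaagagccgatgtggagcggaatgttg

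Genes of mitochondrial energy supply lay higher in the triple effect than in the PTU+PRO effect. Of 44 nuclear genes of oxidative phosphorylation, 41 had fallen in the PTU+PRO effect, where 18.1% of all genes were called lower. In the triple effect 13 had fallen, a share near the 26% of all genes called lower there. In the difference 23 were called higher (8.95% of all genes were) and none lower, with a median of 0.69. Cycs, cytochrome c, was 630.6, 602.3 and 586.4 CPM in saline of set A, 430.9, 520.4 and 413.1 in PTU+PHE+PRO, 359.4, 346.6 and 341.4 in saline of set B and 169.3, 158.8 and 169.9 in PTU+PRO. It fell in both, by 0.41 and by 1.07, a log2 difference of 0.66 ± 0.16 (adjusted p = 0.00806), and the saline hearts differed by 0.80 between sets. Subunits of the mitochondrial ribosome had 8 of 22 called higher. Mrpl20 was 43.4, 62.7 and 44.1 CPM in PTU+PHE+PRO against 33.0 to 44.1 in saline, and 25.5, 24.1 and 24.5 in PTU+PRO against 35.1 to 41.3, a log2 difference of 0.99 ± 0.23. At like settings other mitochondrial lists had smaller medians. With the length offset, those of oxidative phosphorylation and the mitochondrial ribosome were 0.41 and 0.39. With that offset, 0 of 20 citric acid cycle genes were called higher and 1 lower, with a median of 0.01. Of 13 genes of the mitochondrial genome, 1 was then called higher and 0 lower, with a median of 0.07. In the fit of the 4 groups these medians were, in the same order, 0.68, 0.53, 0.10 and 0.33.

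Proteins of the cytosolic ribosome had 12 of 33 called higher and none lower (8.95% and 8.92% of all genes were), with a median of 0.93. Here the triple effect was the one that moved, with 32 of 33 above saline (28.7% of all genes were called higher there), and the PTU+PRO effect held 1. Rpl27 was 69.9 to 86.5 CPM in saline of set A, 136.4, 250.4 and 131.6 in PTU+PHE+PRO, 41.1 to 52.3 in saline of set B and 42.0, 47.5 and 46.7 in PTU+PRO, a log2 difference of 1.16 ± 0.28. In saline of set A against saline of set B 5 of the 33 were also higher (1.45% of all genes were), with a median of 0.46.

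The counts of these 3 groups moved with PTU+PHE+PRO heart 2 and with the length offset. Without PTU+PHE+PRO heart 2, 1 of the 44 oxidative phosphorylation genes, 1 of the 33 cytosolic and 3 of the 22 mitochondrial ribosome genes were called. With the length offset 13, 7 and 4 were called, and the medians were 0.41, 0.67 and 0.39. The oxidative phosphorylation count was 8 without saline heart 1 of set B or saline heart 3 of set A, 10 to 13 without any 1 PTU+PRO heart, saline heart 2 of set B or saline heart 2 of set A, and 37 without PTU+PHE+PRO heart 3. That of the cytosolic ribosome ran from 1 to 27 over the alternatives, with 1 also without the filter on low counts, PTU+PRO heart 1, saline heart 1 of set B or saline heart 3 of set A, 2 without saline heart 2 of set A, 5 and 7 without PTU+PRO hearts 3 and 2, 21 without saline heart 1 of set A, 25 and 26 without PTU+PHE+PRO hearts 1 and 3, and 27 by DESeq2. That of the mitochondrial ribosome was 3 or 4 without PTU+PRO heart 2 or 3, saline heart 1 or 2 of set B or saline heart 2 or 3 of set A, and 14 without PTU+PHE+PRO heart 3. The part of transcript length in these groups was tested only by that offset and by leaving hearts out.

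In the main fit, regulators of mitochondria went the opposite way to the genes of the respiratory chain. Of 15, 5 were called lower and none higher (8.92% and 8.95% of all genes were). The 5 were Ppargc1a, Ppara, Esrrg, Perm1 and Mfn2. Ppara, the nuclear receptor that drives fatty acid oxidation (chromosome 15, 85734983 to 85802819, plus strand), was 30.5, 34.3 and 37.1 CPM in saline of set A, 8.86, 5.34 and 8.62 in PTU+PHE+PRO, 29.6, 36.8 and 37.3 in saline of set B and 29.98, 24.5 and 28.2 in PTU+PRO. The PTU+PHE+PRO hearts were below all others, and PTU+PRO hearts 2 and 3 also lay below every saline heart. The log2 difference was -1.83 ± 0.27, a 3.56-fold drop (adjusted p = 0.000278). Ppargc1a, the coactivator PGC-1alpha, was 75.8, 47.1 and 66.0 CPM in PTU+PHE+PRO against 85.3 to 108.6 in saline, and 133.6, 134.5 and 161.5 in PTU+PRO against 81.3 to 104.4. It moved in opposite directions in the 2 effects, and differed by -1.21 ± 0.23. Perm1, a muscle regulator induced by PGC-1alpha, differed by -0.75 ± 0.16. The count was 3 without PTU+PRO heart 3, saline heart 1 of set B or PTU+PHE+PRO heart 2, the last with a median of -0.22. With the length offset 4 were called lower and 1 higher, with a median of -0.13.

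In fatty acid use, 3 of 30 genes were called higher and 2 lower, shares near or under those of all genes (8.95% and 8.92%). The number higher was 10 without PTU+PHE+PRO heart 1, 6 without heart 3 and 7 by DESeq2. It was 1 in the fit of the 4 groups and without PTU+PHE+PRO heart 2, PTU+PRO heart 1, saline heart 1 or 2 of set B or saline heart 3 of set A. Fabp3, the fatty acid carrier of heart muscle, differed by 1.00 ± 0.24, but its saline hearts differed by 1.12 between the sets (adjusted p = 0.000129). Sterol synthesis had 5 of 23 called higher and none lower, among them Fdps, Sqle, Msmo1 and Nsdhl. Fdps, which makes farnesyl diphosphate, was 6.065, 4.21 and 4.89 CPM in PTU+PHE+PRO and 2.67, 2.38 and 2.615 in PTU+PRO, against 2.17 to 2.60 in the 6 saline hearts, a log2 difference of 1.01 ± 0.22. The PTU+PHE+PRO hearts were all above the rest. The count was 9 without PTU+PHE+PRO heart 2 and 3 without saline heart 3 of set A or in the fit of the 4 groups.

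Ion channels had a median of -0.49, with 8 of 25 called lower and none higher (8.92% and 8.95% of all genes were). The 8 were Kcnd2, Kcnip2, Kcnj2, Kcnj5, Kcnj11, Kcnj12, Gja1 and Gja5. Kcnj12, an inward rectifier that helps set the resting potential, was 22.9, 27.5 and 26.3 CPM in saline of set A, 14.57, 5.99 and 13.51 in PTU+PHE+PRO, 30.04 to 36.2 in saline of set B and 42.4, 39.1 and 44.7 in PTU+PRO. It lay below saline in all PTU+PHE+PRO hearts and above saline in all PTU+PRO hearts, a log2 difference of -1.49 ± 0.30. Kcnj5, a subunit of the muscarinic potassium channel, rose by 0.85 in the PTU+PRO effect with -0.08 in the triple effect, and differed by -0.93 ± 0.15 (adjusted p = 0.000543). With the length offset the median was -0.19, with 6 called. Without PTU+PRO heart 1 or heart 3 the count was 5, and without PTU+PHE+PRO heart 2 it was 4.

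Junctions between heart muscle cells had 7 of 15 called lower and none higher (8.92% and 8.95% of all genes were). The 7 were Cdh2, Ctnnb1, Dsc2, Dsp, Gja1, Tjp1 and Vcl, of which Gja1 is also counted among the ion channels. Dsc2, a desmosomal cadherin, was 79.8 to 93.3 CPM in saline of set A and 54.5, 21.98 and 37.5 in PTU+PHE+PRO, with 82.5 to 91.0 in PTU+PRO against 79.5 to 93.2. It fell in the triple effect and stayed within the saline range in PTU+PRO, a log2 difference of -1.21 ± 0.30 (adjusted p = 0.0117). The count was 5 with the length offset, 4 without PTU+PRO heart 3 or saline heart 2 of set A, 3 without PTU+PHE+PRO heart 2, and 2 without saline heart 1 of set B or in the fit of the 4 groups.

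Integrins, laminins and other basement membrane genes had 9 of 21 called lower and none higher (8.92% and 8.95% of all genes were). Lama2, the laminin chain around muscle fibres, was 326.8, 402.7 and 386.3 CPM in saline of set A and 141.1, 104.6 and 166.2 in PTU+PHE+PRO, against 284.2 to 358.6 and 216.0, 219.2 and 195.8 in set B. It fell in both and further in the triple effect, by -0.79 ± 0.18. Itga3, a laminin receptor subunit, rose by 0.67 in the PTU+PRO effect with -0.17 in the triple effect, a log2 difference of -0.84 ± 0.17. The count was 3 with the length offset, 4 in the fit of the 4 groups and 5 without saline heart 1 of set B. None of 18 collagens was called, with a median of -0.44 that was -0.20 with the length offset and -0.22 without PTU+PHE+PRO heart 2. Of the 18, 12 had fallen in the triple effect (26% of all genes) and 6 in the PTU+PRO effect (18.1%).

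Tubulins, keratins and related filaments had 8 of 17 called higher and none lower (8.95% and 8.92% of all genes were). The 8 were Tuba1b, Tuba1c, Tubb2a, Tubb4b, Tubb5, Tubb6, Krt18 and Vim. Krt18, an intermediate filament of simple epithelia, was 1.37, 0.885 and 0.763 CPM in saline of set A, 30.4, 52.8 and 35.3 in PTU+PHE+PRO, 1.27, 0.805 and 0.753 in saline of set B and 10.99, 15.1 and 10.5 in PTU+PRO. Both treated groups were above all saline hearts, and the log2 difference was 1.61 ± 0.42, a call lost without saline heart 1 of set B. Tubb6 differed by 1.08 ± 0.22. The count was 3 without saline heart 1 of set B or saline heart 3 of set A, 4 without PTU+PRO heart 3 or PTU+PHE+PRO heart 2, and 5 without PTU+PRO heart 1 or saline heart 2 of set A.

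Signals of growth and patterning were mixed. Beside Nkd2, which lay higher, 6 of 21 Notch and Wnt genes were called lower (8.92% of all genes were). The 6 were Notch2, Notch3, Hey2, Axin2, Sfrp2 and Wnt5a. Sfrp2, a secreted modulator of Wnt, was 13.3, 12.8 and 15.7 CPM in PTU+PHE+PRO against 4.52 to 5.74 in saline, and 38.3, 51.03 and 67.7 in PTU+PRO against 5.27 to 7.07. It rose in both, by 1.45 and by 3.12, a log2 difference of -1.67 ± 0.30 (adjusted p = 0.00136). Hey2, a Notch target of the ventricle, rose by 2.59 and 3.29. With the length offset 3 of the 21 were called lower. In the IGF axis Irs1, the adaptor of insulin and IGF receptors, fell to 9.48, 4.29 and 15.4 CPM in PTU+PHE+PRO from 34.5 to 39.2, with 30.03 to 32.6 in PTU+PRO, a log2 difference of -1.47 ± 0.38.

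**Figure D4:**
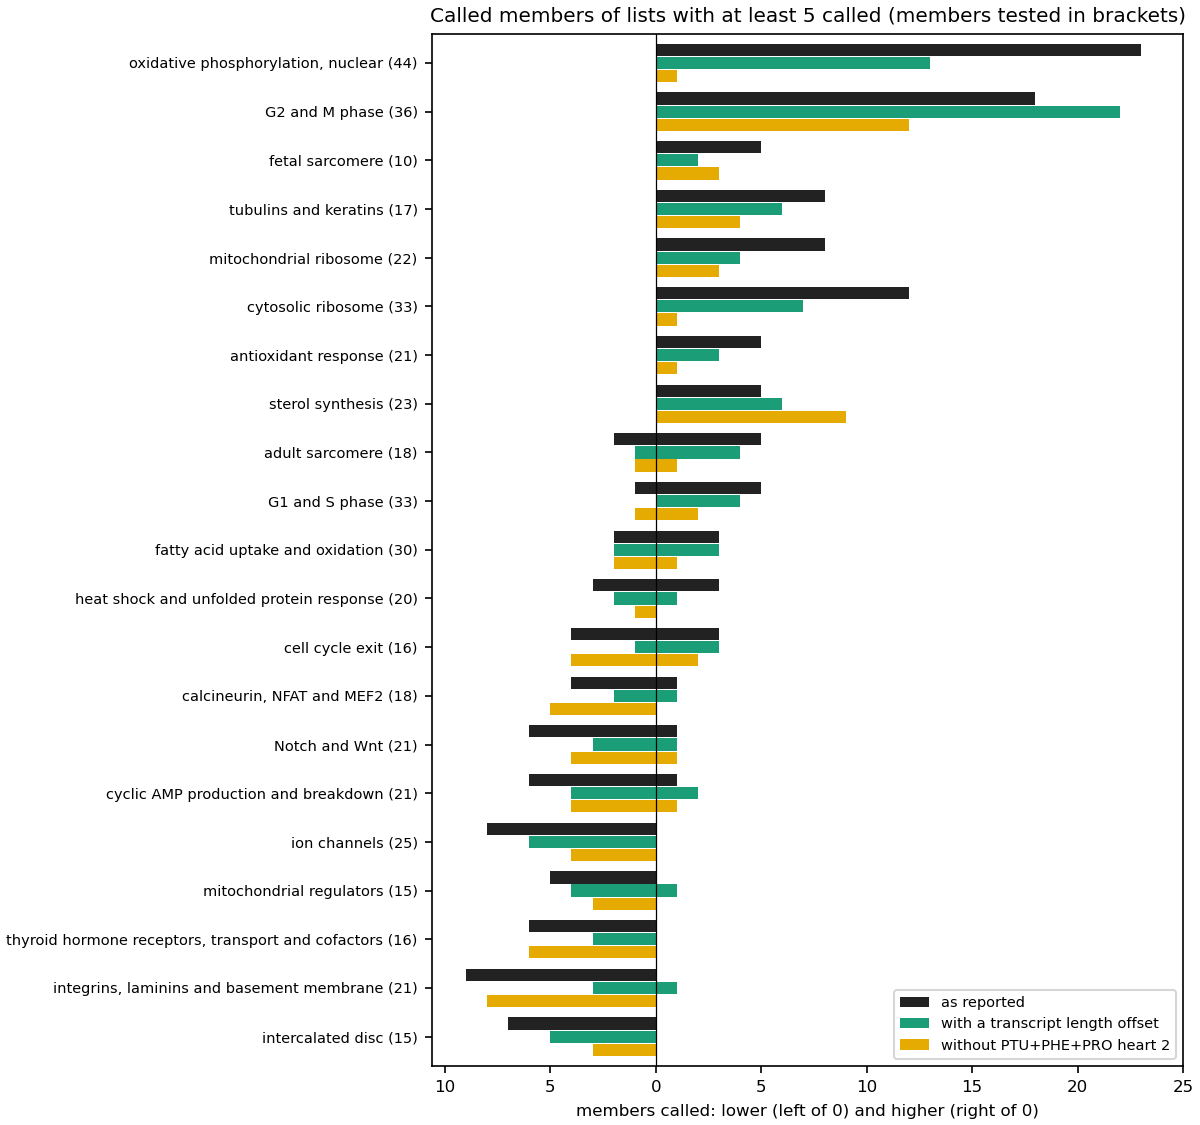
Number of members called lower (left of 0) and higher (right of 0) in the difference between the triple effect and the PTU+PRO effect, for each list with at least 5 called members (tested members in brackets). Black bars are the values reported, green bars those with the transcript length offset and yellow bars those without PTU+PHE+PRO heart 2; oxidative phosphorylation goes from 23 to 13 and to 1, and G2 and M phase from 18 to 22 and to 12.

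Among markers of other cells, erythroid genes had 1 of 8 called higher, the beta-globin Hbb-bs, with a median log2 difference of 0.85. They summed to 1076 to 1289 CPM in PTU+PHE+PRO, within the 825.3 to 1570 of saline of set A, and to 509.7 to 523.0 in PTU+PRO, below the 728.2 to 1316 of saline of set B. None of the fibroblast markers was called, and their summed level was 3573 to 5704 CPM in PTU+PHE+PRO and 5541 to 6134 in PTU+PRO. Among 10 pericyte markers Abcc9 and Notch3 were called lower in the triple effect (8.92% of all genes were). The median log2 difference of the list was 0.06 with the length offset and -0.07 without PTU+PHE+PRO heart 2. Pericyte markers summed to 910.4 to 1063 CPM in PTU+PHE+PRO against 1595 to 1730 in saline, and to 1269 to 1358 in PTU+PRO against 1552 to 1710. Of 7 lymphatic endothelial markers, 2 were called lower, Prox1 and Mmrn1. Their sum was 83.5 to 95.9 CPM in PTU+PHE+PRO, below the 116.6 to 137.6 of its saline hearts, and 169.8 to 178.8 in PTU+PRO, above the 130.7 to 142.0 of its saline hearts. Macrophage markers summed to 125.0 to 141.9 CPM in PTU+PHE+PRO against 250.5 to 298.0 in saline, and to 101.2 to 124.3 in PTU+PRO against 231.6 to 277.0, and 1 of them, Mrc1, was called lower. Epicardial markers stood at 104.1 to 107.8 CPM in PTU+PHE+PRO and 73.8 to 85.4 in PTU+PRO, against 54.0 to 56.4 in the saline hearts.

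The other PHE groups of set A allow the same subtraction on simpler backgrounds. Alpha block added to PRO (PHE+PRO minus saline of set A, less PRO minus saline of set B) gave 39 called genes (0.204%), and alpha block added to PTU (PTU+PHE against PTU, likewise) gave 4319 (22.6%). These share the saline hearts with the main difference, so only the values are set side by side. On PRO 26 genes were higher (0.136%) and 13 lower (0.068%), the cyclic AMP response genes had 1 called member of 15, and the G2 and M, oxidative phosphorylation and ion channel lists had none. Across the 2 sets PHE is confounded with set in each of the 3 subtractions alike. PHE against saline within set A, which needs no second set, gave 2827 calls (14.8%), 1557 higher (8.14%) and 1270 lower (6.64%), a count that was 1060 with the length offset and 650 without saline heart 3 of set A.

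The G2 and M genes had 18 of 36 called higher on PTU+PRO, 18 of 36 on PTU and none on PRO, with medians of 1.09, 0.94 and -0.04. Cdk1 differed by 1.79 ± 0.34 on PTU+PRO, by 1.76 ± 0.34 on PTU and by 0.31 ± 0.35 on PRO. Ppara differed by -1.83 ± 0.27, -2.16 ± 0.27 and -0.27 ± 0.26 on the same backgrounds. Hipk2 differed by -2.67 ± 0.50, -3.58 ± 0.51 and -1.68 ± 0.49, the last not called (adjusted p = 0.196). The oxidative phosphorylation genes had 23, 22 and 0 of 44 called higher. Of all genes, 8.95% were called higher on PTU+PRO, 11.4% on PTU and 0.136% on PRO. With so few genes called on PRO, a list count of 0 there does not set these lists apart.

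Whether the step depends on PTU can be tested without the saline hearts, since these cancel, together with any shift between sets that is the same in all groups. The step on PTU+PRO differed from that on PRO for 2234 genes (11.7%), with 956 higher (5%) and 1278 lower (6.68%). Among G2 and M genes 23 of 36 were higher, and among ion channels 6 of 25 were lower. Cdk1 differed by 1.49 ± 0.34 (adjusted p = 0.0085), Nkd2 by 3.00 ± 0.33 and Fbxo32 by -2.47. Without PTU+PRO heart 3 the count was 1263, and without PTU+PHE+PRO heart 1 it was 3772. The step on PTU+PRO differed from that on PTU for 47 genes (0.246%), 18 higher (0.0941%) and 29 lower (0.152%), a count that ran from 3 without PTU+PRO heart 3 to 381 without PTU+PHE+PRO heart 2. In the test with and without PTU, a shift between sets that depends on PTU cannot be told apart from alpha block. In the test with and without PRO, the same holds for a shift that depends on PRO.

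**Figure D5:**
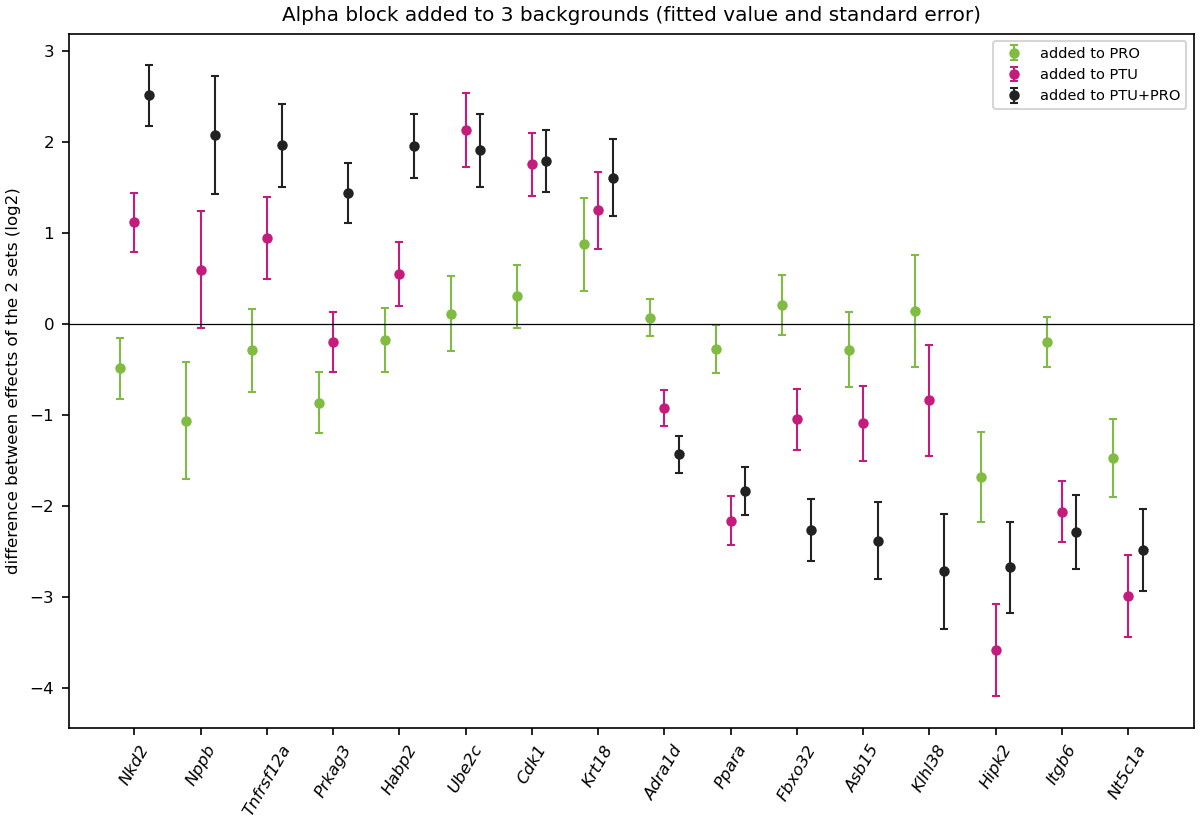
Log2 difference between the effects of the 2 sets (vertical axis, point and standard error of the fit) for 16 genes when alpha block is added to PRO (green), to PTU (magenta) and to PTU+PRO (black). In Cdk1 the points lie at 0.31, 1.76 and 1.79, and in Nkd2 at -0.48, 1.12 and 2.51.

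Differences between the saline groups enter the result directly. Saline of set A against saline of set B gave 814 called genes (4.26%), 278 higher (1.45%) and 536 lower (2.8%). Sox4, a transcription factor of progenitor cells, was 22.2, 23.6 and 27.7 CPM in saline of set A and 53.1 to 58.8 in saline of set B, and its log2 difference of -2.05 ± 0.35 came with a saline difference of -1.20. Adnp, a chromatin protein, was 0.592 to 0.846 CPM in saline of set A, 0.0958 to 0.557 in PTU+PHE+PRO, 8.96 to 11.9 in saline of set B and 13.6 to 15.9 in PTU+PRO; its log2 difference was -2.04 ± 0.44 and its saline difference -3.81. mt-Tm, a mitochondrial transfer RNA, was 29.3 to 39.0 CPM in saline of set A and 10.7 to 14.0 in saline of set B, and its log2 difference was -2.37 ± 0.50.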

How the data were processed

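RNA from whole hearts, extracted with Trizol and prepared with a TruSeq RNA kit per the labels' protocols, was sequenced in 27 libraries. The deposited table holds counts, whole reads per gene that the authors made from reads trimmed with cutadapt 1.9, aligned with STAR 2.5.2b to mm10 and counted with featureCounts 1.5.1, per the submitters' processing notes, with no normalization. Which annotation was counted, whether strand was used and how multi-mapping reads were treated are not given in the sources used here, so overlapping, antisense and near-identical genes may share reads. Of 51826 genes, 51633 matched a symbol of GENCODE M21 (GRCm38) and 13440 had no read.

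Here genes were filtered with filterByExpr (minimum count 10, minimum total 15), which left 19119, counts were scaled by TMM, and edgeR's robust quasi-likelihood fit of 9 group means was run on the 27 libraries (edgeR 4.0.16, limma 3.58.1, R 4.3.3), with 18 residual degrees of freedom, a prior count of 0.125 and a common biological coefficient of variation of 0.171. All tests are two-sided. A standard error is the absolute log2 value over the root of F. Where no read was counted, up to 3 reads per library remain possible, a limit that covers counting error only, since the reads carry no molecular identifiers. Hearts were grouped by the labelled treatment and sequencing set. Sex, read from Xist and Y-linked genes, was male, male, female in both saline groups, female, male, male in PTU+PHE+PRO and female, male, female in PTU+PRO.

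The members of the comparison and the 71 gene lists were chosen with earlier results of these data known. Genes were named by rule: the 12 largest positive and 12 largest negative called differences with a mean of at least 5 CPM and no overlap between the treated groups after subtraction of the saline mean, which 2631 genes met together, up to 4 called members of each list with at least 3, and all members of the adrenergic receptor, thyroid-induced, fetal sarcomere and cyclic AMP response lists, 184 genes in all. Other list members named without values are those called, and some members are not reported here.

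Replicate numbers paired only the saline groups (r 0.89 to 0.93), and other pairs of groups gave r from -0.36 to 0.40 for equal numbers, so the main fit has no block. Alternatives were DESeq2 1.42.0, RLE factors, no filter, a fit of the 4 groups with and without a replicate block, sex as a covariate, an offset per library from a lowess curve (span 0.5) on transcript length, each heart left out, and a 2-fold minimum. A block for the saline hearts and leaving out the 2 steepest libraries (PTU+PHE+PRO heart 2 and PTU+PHE heart 3) were added after seeing the data.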

Additional observations from a re-analysis of the deposited data

Results flagged for a closer look

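The difference of the alpha block step between backgrounds was the reason for each result here, and each was tested as an interaction in the same edgeR fit, with 3 hearts per group. With and without PTU, the step on PTU+PRO minus the step on PRO differed for 2234 genes (11.7%). Of those named by rule, Nppb, the B-type natriuretic peptide of strained heart muscle, differed by 3.14 on the log2 scale, Nkd2 by 3.00, Zfp871 by 2.36, Prkag3, a regulatory subunit of the energy sensor AMPK, by 2.30 and Tnfrsf12a by 2.25. Nppb was 177.0, 609.1 and 301.8 CPM in PTU+PHE+PRO against 66.2 to 169.9 in saline, and 70.8, 108.2 and 71.3 in PTU+PRO against 67.7 to 162.2. All PTU+PHE+PRO hearts were above their saline hearts, heart 2 the most, and the step of 2.08 on PTU+PRO ran from 1.46 to 2.41 over the 21 alternatives, 10 of which lost its call. Lower with PTU were Klhl38 (-2.86), Fam222a (-2.82), Ccrl2 (-2.68), Ddit4, a stress-induced inhibitor of mTORC1 (-2.67), and the immediate response gene Nr4a1 (-2.62). In Nr4a1 the step was -0.18 on PTU+PRO and 2.43 on PRO, neither called.

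With and without PRO, the step on PTU+PRO minus the step on PTU differed for 47 genes (0.246%), and for 3 without PTU+PRO heart 3. Ucp3, an uncoupling protein of muscle mitochondria, differed by -3.74: its step was -0.56 on PTU+PRO, not called, and 3.19 on PTU. Also lower were Rsrp1 (-1.40), Klf10 (-1.37), Senp8 (-1.23) and Lipe, the hormone-sensitive lipase (-1.23). Higher were Prkag3 (1.64), Astn2 (1.21), Dnajb5 (1.19), Creb5 (1.18) and Tiam2 (1.16). Sets and PHE cannot be told apart in any of these values.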

How the results depend on the processing

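None of the 137 called genes named by rule reversed its direction in any alternative run; of the 47 named but not called, 19 changed sign in at least 1, such as Grk3, at -0.23 with a range of -0.51 to 0.06. The 3418 calls of the difference became 1988 in the fit of the 4 groups, 923 at 2-fold and, with the replicate block in the fit of the 4 groups, 2154, so the block moved the count of that fit by less than 1.5 times; the genes higher became 831 and, with the block, 908, and without a filter 902, which put 37.0% of the calls on the higher side against 50.1%. Leaving out 1 heart gave 1778 to 4689 calls, 668 to 2370 higher and 1010 to 2319 lower, and 34.8% higher without PTU+PHE+PRO heart 2. At 2-fold the triple effect held 4335 calls, the PTU+PRO effect 2456, PTU+PHE+PRO against PTU+PRO directly 2525, saline against saline 316, the step on PTU 1286, PHE alone 439, and the 2 tests between backgrounds 801 and 22. Without the 2 steepest libraries saline against saline gave 1330, the step on PRO 128 (54 higher and 74 lower, against 26 and 13), PHE alone 5015 and the test with and without PRO 195. The step on PRO gave 102 without a filter, 233 by DESeq2 and 66 with the saline block; PHE alone gave 1060 with the length offset; the test with and without PRO gave 108 without a filter, 245 by DESeq2, 79 with the offset and 31 with sex. Single hearts left out gave 9054 to 10437 for the triple effect, 5525 to 7499 for PTU+PRO, 6899 to 8919 directly, 522 to 1015 for saline, 11 to 72 for the step on PRO, 2889 to 5266 on PTU, 650 to 4019 for PHE, 1263 to 3772 and 3 to 381 for the tests between backgrounds, and 17 to 42 lists with at least 3 called members against 31, which was 18 in the fit of the 4 groups. Of 137 named genes called, 71 kept their call in all 21 alternatives; 105 kept it with the length offset, 101 in the fit of the 4 groups and 137 by DESeq2. The causes were not tested.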
